A study of Mus musculus with 20 samples.

Results

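Bacilli are a class of Firmicutes that holds the lactobacilli and several lineages of strict anaerobes of the gut. In the taxonomy used for these data the class stands alone in a phylum named Firmicutes_D, and its members here were all entries of that phylum with at least 1 read in the feces of 20 mice. They comprised 15 of the 149 genera with a count, in 5 families and 5 of the 26 orders with a count. Together they held 3799 of 902325 reads (0.421%), so that they were a minor part of every sample. The set had been described by its lactobacilli, Erysipelotrichales and RF39, but 2402 of its reads (63.2%) came from Turicibacter, which the taxonomy places in an order of its own, Haloplasmatales_A.

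The feces came from female C57BL/6 mice aged 8 to 14 weeks, co-housed for at least 10 days, and were collected 5 days after treatment. FO mice (n = 10) had been injected with 3.5 mg/kg oxaliplatin and, 1 h later and again the next day, with 50 mg/kg 5-fluorouracil, while control mice (n = 10) had received PBS or water on the same schedule. The labels name 2 batches, E53B and E56A, each with 5 control and 5 FO mice. Replicates 6 to 10 of each group belong to E53B and replicates 1 to 5 to E56A. No tumor was part of the labels, and cages were not given in the sources used here, so a cage that mice shared cannot be told apart from their batch or treatment.

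Each value is a read count of the V4 stretch of the bacterial 16S rRNA gene, or that count as a share of all reads of the sample. A share tells how large a taxon was relative to the rest, so that more of a taxon and fewer of the other bacteria cannot be told apart. This matters here because Bacteroidota, which made up 86.1% of control reads, made up 66.6% of FO reads, and every other taxon could gain in share from that alone. The lowest total was 17218 reads, in FO replicate 6, and the highest 57415, in control replicate 2. A count of 0 allows up to 3 reads, which is a share of up to 0.0174% in the former and up to 0.00523% in the latter. Such limits and the confidence intervals below cover counting error only. The smallest Bacilli genus count above 0 was 2, so that entries of very few reads say little about absence.

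Lactobacilli ferment sugars to lactic acid and, in rodents, live on the lining of the forestomach, from where they are shed along the gut. Turicibacter and the Erysipelotrichaceae genera Dubosiella and Faecalibaculum are anaerobes common in the mouse intestine, and Turicibacter is known to act on bile acids and host lipids. RF39 is a lineage known almost wholly from sequence, whose members have small genomes and few biosynthetic pathways.

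All 20 mice carried Bacilli reads, and 1 order, Lactobacillales, was found in every one. Lactobacillales consisted of the single family Lactobacillaceae, with 798 reads in 3 genera. Haloplasmatales_A, all of it Turicibacter of the family Turicibacteraceae, had its 2402 reads in 17 mice. RF39 consisted of the family UBA660, with 497 reads in 17 mice. Erysipelotrichales consisted of Erysipelotrichaceae, with 94 reads in 16 mice. Acholeplasmatales, present as Anaeroplasmataceae and its genus Pelethenecus, had 8 reads in 2 mice. Of the Bacilli entries listed, 1 order (Mycoplasmatales), 4 families and 9 genera had no count in any mouse. A mouse held between 3 and 10 Bacilli genera.

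**Figure D1:**
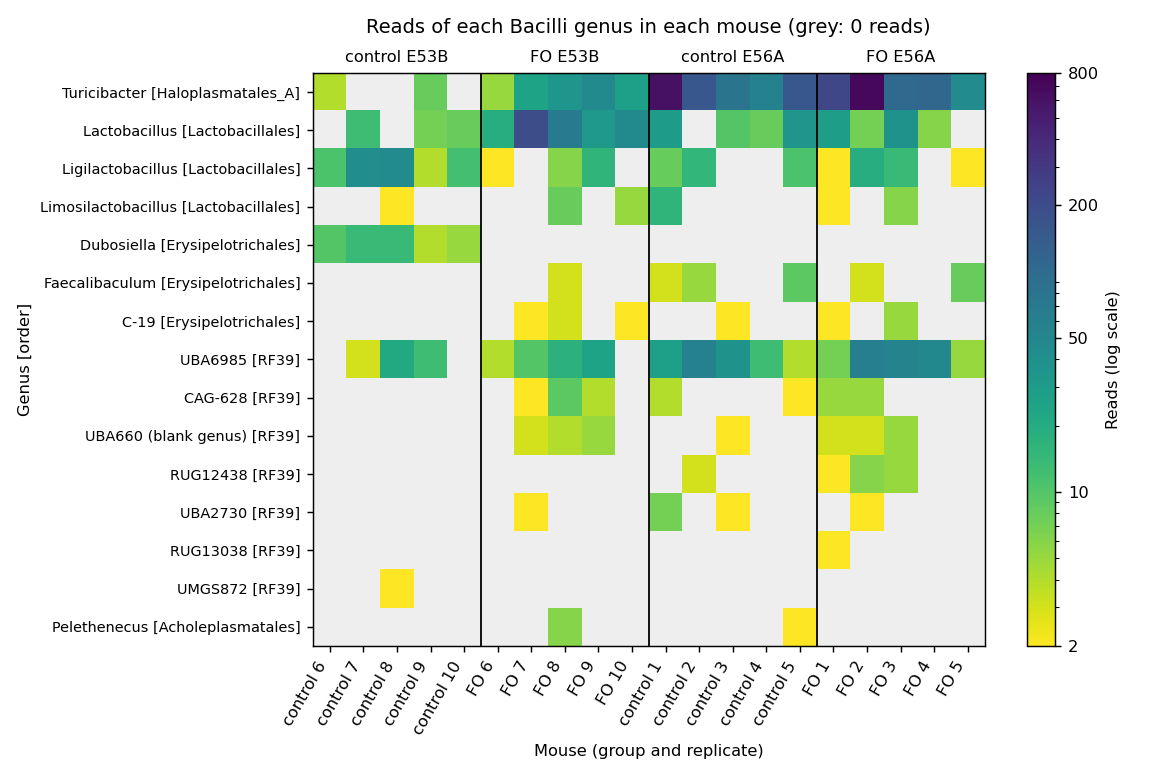
Reads of each Bacilli genus (rows, with the order in brackets) in each mouse (columns, grouped by treatment and batch), coloured on a log scale, with grey for 0 reads. Turicibacter is dark across all 10 mice of batch E56A and absent from 3 controls of E53B, and Dubosiella appears in the 5 controls of E53B alone.

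The Bacilli share was higher with FO in E53B and did not differ beyond the spread between mice in E56A. In the E53B controls it was 0.0539%, 0.157%, 0.189%, 0.0978% and 0.0608% in replicates 6 to 10. In the E53B FO mice it was 0.174%, 0.592%, 0.390%, 0.362% and 0.158%. The FO mice of this batch were higher on the whole, although FO replicates 6 and 10 lay below the highest control. The mean rose from 0.112% ± 0.0596 (SD, n = 5) to 0.335% ± 0.178 (SD, n = 5; exact permutation test, p = 0.0317, adjusted over 9 phyla p = 0.0357). In that batch 88.9% of the phyla tested passed the 5% false discovery rate, so passing did not set Bacilli apart. The call was lost without FO replicate 7 or without control replicate 6, 7, 9 or 10 (adjusted p = 0.0536 to 0.0803).

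In E56A the controls had 1.60%, 0.415%, 0.253%, 0.210% and 0.402% in replicates 1 to 5, and the FO mice had 0.547%, 1.59%, 0.441%, 0.328% and 0.110%. The groups overlapped fully, and each held 1 mouse far above the other mice of its group. The means were 0.576% ± 0.579 (SD, n = 5) and 0.603% ± 0.575 (SD, n = 5; exact permutation test, adjusted p = 0.857). Over both batches the mean was 0.344% ± 0.458 (SD, n = 10) in control and 0.469% ± 0.425 (SD, n = 10) in FO, and the difference of 0.126 percentage points was within the spread between mice (permutation test, adjusted p = 0.502). Of all phyla, 77.8% passed this comparison. For comparison, Firmicutes_A rose from 12.1% ± 3.96 to 28.5% ± 7.02 (SD, n = 10 each), with all 10 FO mice above all control mice. Without control replicate 1 the Bacilli difference was 0.265 (adjusted p = 0.04995), and without FO replicate 2 it was 0.00119. Whether the FO effect on the Bacilli share differed between batches was tested directly, and it did not pass (permutation of batch within treatment, adjusted p = 0.875).

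Set against the reads outside Bacteroidota alone, Bacilli were 3.31% ± 4.21 (SD, n = 10) of control and 1.62% ± 2.03 (SD, n = 10) of FO reads, a difference in the other direction that did not pass (permutation test, adjusted p = 0.377). The difference in E53B was also lost on this scale, where it was 0.192 points (adjusted p = 0.556 by exact permutation).

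The order that made up the high samples depended on the batch. Haloplasmatales_A, that is Turicibacter, was the leading order in all 10 mice of E56A, control and FO alike. In E53B Lactobacillales led in 9 of 10 mice and RF39 in control replicate 9. As a share of the Bacilli reads of each mouse, Haloplasmatales_A averaged 71.1% in E56A and 15.6% in E53B, and the batches did not overlap, with at least 44.8% in every E56A mouse and at most 35.4% in every E53B mouse. Lactobacillales averaged 9.89% in E56A and 59.2% in E53B, again without overlap. Both differences passed (permutation of batch within treatment, adjusted p = 0.000189 each). RF39 averaged 16.4% and 13.4% (adjusted p = 0.714). Erysipelotrichales averaged 2.49% and 11.5% (adjusted p = 0.0413), but the direction differed by treatment, with 1.62% in E56A and 21.5% in E53B among controls and 3.36% and 1.42% among FO mice. That order reached the mean share of 0.01% needed for testing only through the E53B controls, so that its call gives no independent support to a difference. Of 12 orders tested as a share of their own phylum, 50% passed between batches.

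**Figure D2:**
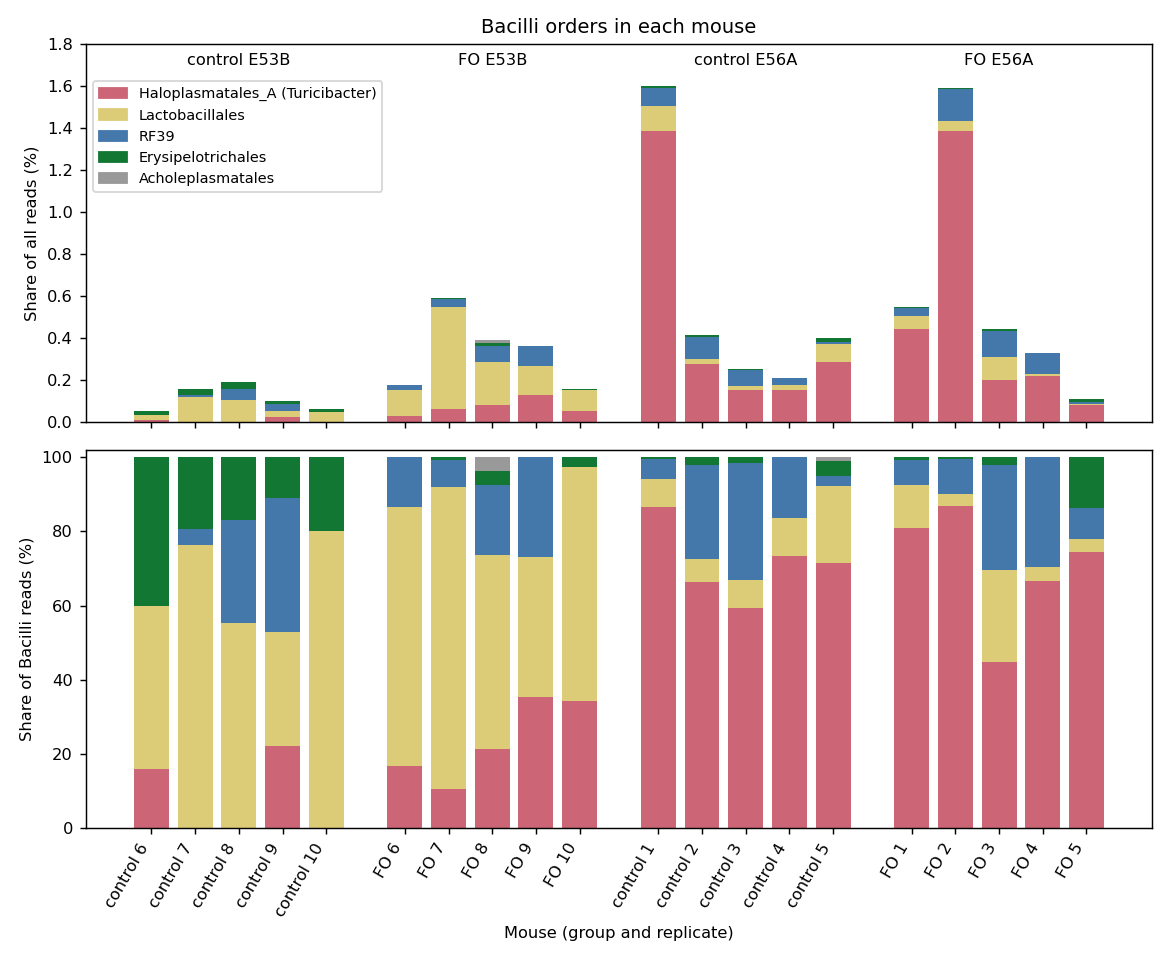
Bacilli orders in each mouse, stacked, as a share of all reads in percent (upper panel) and as a share of the Bacilli reads in percent (lower panel). The high bars of control replicate 1 and FO replicate 2, at 1.60% and 1.59%, are mostly Turicibacter, and that of FO replicate 7, at 0.592%, is mostly Lactobacillales.

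Turicibacter accounted for both mice with the highest Bacilli share. Control replicate 1 had 617 Turicibacter reads of 712 Bacilli reads, a share of all reads of 1.38% (95% Wilson interval 1.28% to 1.5%). FO replicate 2 had 702 of 807, a share of 1.38% (95% Wilson interval 1.29% to 1.49%). One was a control and the other an FO mouse, and both belonged to E56A.

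The other controls of E56A, replicates 2 to 5, had 158, 79, 58 and 158 Turicibacter reads, and the other FO mice of that batch had 225, 103, 110 and 44 in replicates 1, 3, 4 and 5. In E53B the controls had 4, 0, 0, 8 and 0 reads in replicates 6 to 10, and the FO mice had 5, 25, 34, 45 and 27. Every E53B mouse was thus low, yet within that batch all 5 FO mice, at 0.0290% to 0.128% of reads, lay above all 5 controls, at 0% to 0.0217%. The mean share rose from 0.00607% ± 0.00952 (SD, n = 5) to 0.0712% ± 0.0373 (SD, n = 5; exact permutation test, p = 0.00794, the smallest this design can give, adjusted over 18 orders p = 0.0159), and the call held without any single mouse of the batch. In E53B 72.2% of all orders passed, 11 higher and 2 lower with FO. Orders outside Bacilli also separated fully there with the same smallest p, among them Lachnospirales, Oscillospirales and Desulfovibrionales (higher) and Bacteroidales (lower). Full separation thus did not set Turicibacter apart. On the centred log ratio scale, which sets each order against the average order, the rise of Turicibacter did not pass (exact permutation test, adjusted p = 0.0716).

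In E56A Turicibacter averaged 0.450% ± 0.526 (SD, n = 5) in control and 0.465% ± 0.530 (SD, n = 5) in FO (exact permutation test, adjusted p = 0.968), where 22.2% of the orders passed and none of the 4 Bacilli orders tested did. Over both batches it averaged 0.228% ± 0.422 and 0.268% ± 0.410 (SD, n = 10 each; permutation test, adjusted p = 0.723). The sign of that difference rested on 1 mouse, being 0.168 without control replicate 1 and -0.0841 without FO replicate 2. Between batches the share differed by 0.419 percentage points, from 0.0386% in E53B to 0.458% in E56A (permutation of batch within treatment, p = 9.45e-05, adjusted p = 0.0017), and it was the only Bacilli order among the 11.1% of orders that passed. The ranges of the batches still overlapped, since FO replicate 9 of E53B, at 0.128%, lay above FO replicate 5 of E56A, at 0.0822%.

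Counts of genera were also tested in edgeR, with batch in the model. Of the 15 Bacilli genera 3 had enough reads to be tested, Turicibacter, Lactobacillus and UBA6985. Between batches Turicibacter was higher in E56A by 4.71 ± 0.81 on the log2 scale (SE; edgeR quasi-likelihood test, adjusted p = 0.00043), and it passed in all 20 fits that left out a mouse, at 4.19 to 4.98. Turicibacter reached the minimum count for testing through the E56A mice, so that these values describe the batches and give no independent support to a difference. Of all genera tested, 11.9% passed between batches. UBA6985 was higher in E56A by 1.71 ± 0.71 (edgeR, adjusted p = 0.135) and Lactobacillus lower by 0.29 ± 1.01 (edgeR, adjusted p = 0.860).

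**Figure D3:**
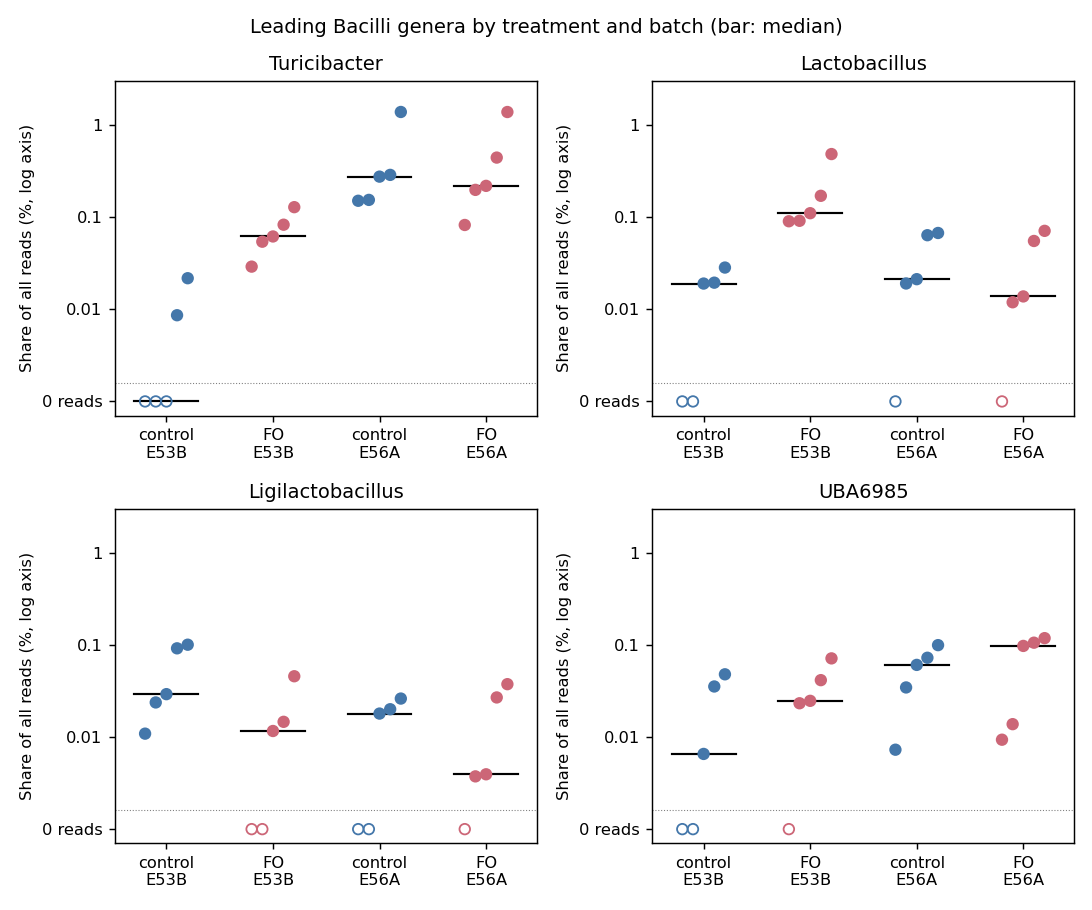
Share of all reads, in percent on a log axis, of the 4 Bacilli genera with the most reads, by treatment and batch. Each point is a mouse, open circles below the dotted line are mice with 0 reads and the black bar is the median. The FO mice of E53B lie above the controls of that batch for Turicibacter and Lactobacillus, as they did for several orders outside Bacilli.

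In E53B the mean share of Lactobacillus was higher and that of Ligilactobacillus lower with FO, but neither passed as a share of the family. Lactobacillus, the type genus of the family, had 0, 13, 0, 7 and 8 reads in control replicates 6 to 10 of that batch and 19, 196, 70, 32 and 45 in the FO mice. As shares these were 0% to 0.0284% in control and 0.0902% to 0.484% in FO, so that every FO mouse lay above every control. How many genera separated fully in E53B was not counted. Orders outside Bacilli, such as Lachnospirales and Oscillospirales, did so (exact permutation test, p = 0.00794 each), so that the separation alone cannot set Lactobacillus apart. Ligilactobacillus, the genus of the mouse commensal Ligilactobacillus murinus, had 11, 42, 44, 4 and 12 reads in the same controls and 2, 0, 6, 16 and 0 in the FO mice. It was the larger of both genera in 4 of 5 controls of E53B and in none of the FO mice. Its own share of all reads was 0.0512% ± 0.0416 (SD, n = 5) in control and 0.0144% ± 0.0187 (SD, n = 5) in FO.

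Of the Lactobacillaceae reads in E53B, Lactobacillus made up 25.5% ± 27.2 (SD, n = 5) in control and 86.1% ± 12.4 (SD, n = 5) in FO, between 0% and 63.6% in the controls and between 66.7% and 100% in the FO mice. Ligilactobacillus made up 73.7% ± 26.3 and 10% ± 13.7 (SD, n = 5 each). These shares within the family were computed after the data were seen and rest on as few as 11 reads in control replicates 6 and 9. Each gave the smallest p that 5 mice against 5 allow (exact permutation test, p = 0.00794), and none passed the adjustment over 65 genera (adjusted p = 0.103 for each), of which 0% passed and 11 had an unadjusted p under 0.05. The shares of both genera were near complements within each mouse, so that the p of Ligilactobacillus repeats that of Lactobacillus. In E56A Lactobacillus made up 66.3% ± 41.5 of the family in control and 55.9% ± 41.8 in FO (SD, n = 5 each; exact permutation test, p = 0.714), and the groups overlapped fully.

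In that batch Lactobacillus had 30, 0, 10, 8 and 35 reads in control replicates 1 to 5 and 28, 7, 37, 6 and 0 in the FO mice. Ligilactobacillus had 8, 15, 0, 0 and 11 in the controls and 2, 19, 14, 0 and 2 in the FO mice. Neither genus separated the groups. Limosilactobacillus, whose members include the rodent and human commensal Limosilactobacillus reuteri, had 39 reads in 6 mice, of which 16 came from control replicate 1, and was found in 4 FO and 2 control mice. All 3 genera of lactobacilli carried their reads in entries with no species assigned.

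As an order, Lactobacillales rose in E53B from 0.0654% ± 0.0442 (SD, n = 5) to 0.209% ± 0.158 (SD, n = 5; exact permutation test, adjusted p = 0.0439). FO replicate 7, with 196 Lactobacillaceae reads or 0.484%, was the highest mouse of the series, and without it the difference fell from 0.144 to 0.0755 percentage points (adjusted p = 0.143). The call was also lost without any 1 of the 5 controls, and kept without any other FO mouse. Tested as counts of the family Lactobacillaceae, the same reads gave 0.40 ± 0.58 on the log2 scale in E53B (SE; edgeR quasi-likelihood test, adjusted p = 0.703), and 1.68 ± 0.61 on total counts in place of the TMM scaling (edgeR, adjusted p = 0.0205). The order did not pass against the reads outside Bacteroidota (exact permutation test, adjusted p = 0.862). In E56A it was 0.0543% ± 0.0460 in control and 0.0479% ± 0.0426 in FO (SD, n = 5 each; exact permutation test, adjusted p = 0.968), and over both batches 0.0598% ± 0.0430 and 0.129% ± 0.139 (SD, n = 10 each; permutation test, adjusted p = 0.162). Of all orders 50% passed in the pooled comparison, 8 higher and 1 lower with FO, and none of the 4 Bacilli orders tested was among them.

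In the edgeR fit of E53B alone, Lactobacillus and Turicibacter both reached the minimum count for testing through the FO mice, so that their values there describe the batch and give no independent support to a difference. Lactobacillus gave 2.84 ± 0.93 on the log2 scale (SE, n = 5 against 5; quasi-likelihood test, adjusted p = 0.0457), where 19.7% of the genera passed, 4 higher and 8 lower. It did not pass with no filter on low counts (adjusted p = 0.0546), nor in any of the 10 fits that left out a mouse of the batch (adjusted p = 0.0587 to 0.163). Turicibacter gave 2.63 ± 0.97 in the same fit (edgeR, adjusted p = 0.0782), with an adjusted p of 0.119 with no filter, 0.0203 without control replicate 9 and 0.0117 on total counts in place of the TMM scaling. In E56A alone Lactobacillus gave -0.94 ± 1.07 (edgeR, adjusted p = 0.646) and Turicibacter -0.30 ± 0.82 (edgeR, adjusted p = 0.847). In that fit 0% of 62 genera passed, with 11 at an unadjusted p under 0.05.

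The difference of the FO effect between batches, E56A minus E53B, was -4.13 ± 1.51 for Lactobacillus (edgeR interaction term, p = 0.0121, adjusted p = 0.220) and -3.24 ± 1.29 for Turicibacter (edgeR interaction term, p = 0.0197, adjusted p = 0.220). Neither passed, and 0% of the 59 genera did, with 6 at an unadjusted p under 0.05 and 1 call by DESeq2. Among orders, by permutation of batch within treatment, 0% of 18 passed, with 1 at an unadjusted p under 0.05. Pooled over batches, Lactobacillus differed by 0.93 ± 0.99 and Turicibacter by 0.91 ± 0.75 (edgeR, adjusted p = 0.554 and 0.417), where 22% of the genera passed, 6 higher and 7 lower with FO. On total counts 29 genera passed, 25 higher and 4 lower.

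Tested as families, the same reads gave 0.15 ± 0.70 for Turicibacteraceae, -0.69 ± 0.62 for Lactobacillaceae and -0.47 ± 0.63 for UBA660 (edgeR, adjusted p = 0.924, 0.495 and 0.690), while 4% of the families passed. The negative signs of the last 2 stand beside higher mean shares with FO. On total counts in place of the TMM scaling Lactobacillaceae gave 0.76 ± 0.57 and UBA660 0.84 ± 0.69 (edgeR, adjusted p = 0.224 and 0.254), and the median over all families moved from -0.30 to 1.03.

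Erysipelotrichales had a lower mean share with FO, and in E53B its reads came from different genera in the control and FO groups. Dubosiella, represented by the species Dubosiella sp000403415, had 10, 14, 14, 4 and 5 reads in control replicates 6 to 10, a share of 0.0109% to 0.0319%. It had 0 reads in the 5 FO mice of that batch and in all 10 mice of E56A. Among all genera tested in E53B it was the only one found in every control and in no FO mouse. The zeros allow shares of up to 0.00602% in FO replicate 10 and up to 0.0174% in FO replicate 6, and the latter limit lies above the shares of control replicates 9 and 10.

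Detection in 5 of 5 controls and 0 of 5 FO mice of E53B gave the smallest p that the design allows (Fisher's exact test, p = 0.00794, adjusted p = 0.706), beside 3.37% of genera with an unadjusted p under 0.05. The comparison of the E53B controls with the E56A controls had the same counts, 5 of 5 and 0 of 5 (Fisher's exact test, p = 0.00794, adjusted p = 0.754), beside 3.16% of genera. With 5 mice against 5, a genus could pass the adjustment only if many genera reached that p together. Not passing in these comparisons is therefore no evidence of equal detection. Over both batches it was found in 0 of 10 FO and 5 of 10 control mice (Fisher's exact test, p = 0.0325, adjusted p = 0.780). In that comparison 0% of the genera passed and 2.78% had an unadjusted p under 0.05, with Dubosiella as the only one of the 15 Bacilli genera.

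The other Erysipelotrichaceae genera had no reads in the E53B controls. Faecalibaculum, all of it Faecalibaculum rodentium, had 3 reads in FO replicate 8, 3 and 8 in FO replicates 2 and 5, and 3, 5 and 9 in control replicates 1, 2 and 5. The genus C-19 (species C-19 sp009917405) had 2 to 5 reads in 5 FO mice and 2 reads in control replicate 3. Their counts were too low to compare groups.

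As an order, Erysipelotrichales fell in E53B from 0.0214% ± 0.00989 (SD, n = 5) to 0.00471% ± 0.00598 (SD, n = 5; exact permutation test, adjusted p = 0.0357). Only the E53B controls had a mean share above the 0.01% needed for testing. The order was thus tested through the group where it was high, and its calls give no independent support to a difference. The groups overlapped, since FO replicate 8, at 0.0146%, lay above control replicates 9 and 10. The call was kept in 2 of the 10 tests that left out a mouse, those without FO replicate 8 and without control replicate 9, with an adjusted p of 0.0357 to 0.0659 over all 10. In E56A the mean was 0.00713% ± 0.00612 in control and 0.00688% ± 0.00569 in FO (SD, n = 5 each; exact permutation test, adjusted p = 0.968). Over both batches it was 0.0143% ± 0.0108 and 0.0058% ± 0.00562 (SD, n = 10 each; permutation test, p = 0.0394, adjusted p = 0.0645). This comparison passed on the centred log ratio scale (permutation test, adjusted p = 0.0326) and against the reads outside Bacteroidota (permutation test, adjusted p = 0.0415). As a share of all reads it passed without FO replicate 5 or 8 or without control replicate 1, 3 or 4 (adjusted p = 0.0216 to 0.0478).

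Within the Bacilli reads the order made up 40%, 19.4%, 16.9%, 11.1% and 20% in control replicates 6 to 10 and 0%, 0.833%, 3.75%, 0% and 2.53% in the FO mice of E53B, with no overlap. In E56A it made up 0% to 4.07% in control and 0% to 13.6% in FO. The FO effect was -20.1 percentage points in E53B (exact permutation test, p = 0.00794, adjusted p = 0.0953) and 1.75 in E56A (exact permutation test, adjusted p = 0.943). The difference between these effects, 21.8 percentage points, passed (permutation of batch within treatment, p = 0.00296, adjusted p = 0.0355), where 8.33% of the 12 orders passed. It was lost without FO replicate 5 or any of control replicates 2 to 5, with an adjusted p of 0.0703 to 0.0824. Since the order was tested only through the E53B controls, where it was high, this call gives no independent support to a difference. Pooled over batches, none of the Bacilli orders differed in its share of the Bacilli reads, and 0% of the 12 orders passed, with 1, Erysipelotrichales, at an unadjusted p under 0.05 (11.6% ± 12.8 in control and 2.39% ± 4.12 in FO, SD, n = 10 each; permutation test, p = 0.0305, adjusted p = 0.366).

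**Figure D4:**
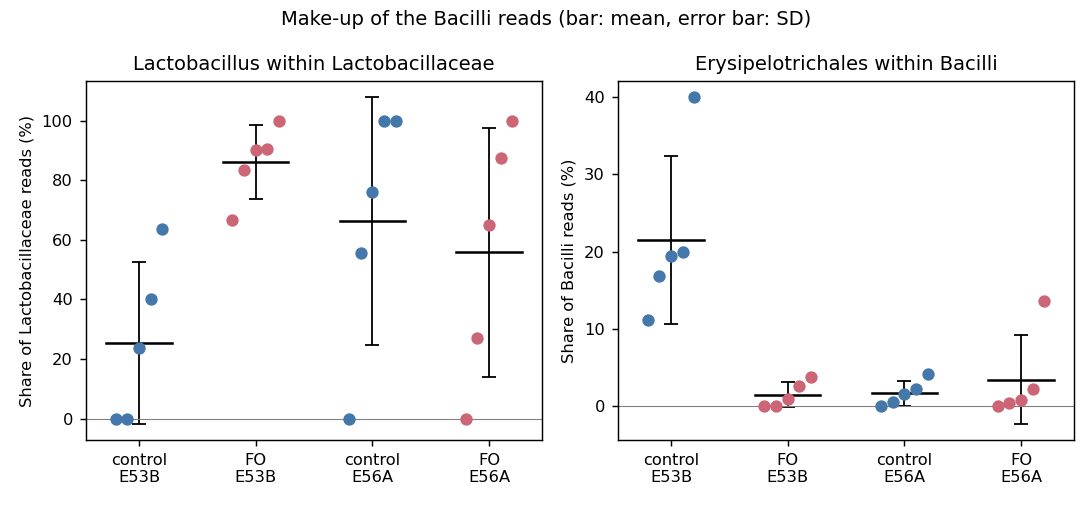
Left, Lactobacillus as a share of the Lactobacillaceae reads of each mouse, and right, Erysipelotrichales as a share of its Bacilli reads, both in percent, by treatment and batch. Points are mice, the bar is the mean and the error bar the SD (n = 5). In E53B the groups do not overlap in either panel, and in E56A they overlap in both.

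RF39 did not separate control from FO in either batch. Its main genus UBA6985, with 385 of 408 reads in the species entry UBA6985 sp900314465, had 0, 3, 21, 13 and 0 reads in the E53B controls and 4, 10, 17, 25 and 0 in the FO mice of that batch. In E56A it had 27, 57, 38, 13 and 4 in the controls and 7, 60, 55, 49 and 5 in the FO mice. Mice of each group ranged from few reads to many, and the 3 mice with none were all in E53B. The share of the order was 0.0410% ± 0.0383 (SD, n = 10) in control and 0.0654% ± 0.0508 (SD, n = 10) in FO (permutation test, adjusted p = 0.267). In edgeR the difference of UBA6985 was -0.20 ± 0.70 (adjusted p = 0.905), and 0.57 on total counts.

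The remaining RF39 genera were sparse. CAG-628 (species CAG-628 sp003524085) had 31 reads in 5 FO and 2 control mice, and an entry of UBA660 with a blank genus name had 25 reads in 6 FO and 1 control mice (Fisher's exact test, p = 0.0573, adjusted p = 0.780). RUG12438 had 16 reads and UBA2730 13 reads in 4 mice each, and RUG13038 and UMGS872 had 2 reads each in 1 mouse.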

How the data were processed

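Bacterial DNA was extracted from stool with a Qiagen kit, the V4 region was amplified with primers 515F and 806R and sequenced in pairs, and the submitters' processing notes name bcl2fastq 2.2 and cutadapt. Per the methods of the study, reads were merged, filtered and cleared of chimeras in QIIME2, clustered into operational taxonomic units, which were named with a classifier trained on Greengenes2. The authors deposited whole-number read counts per taxon, one table per rank, with no normalization. Taxonomic names are those of the classifier, and no 16S sequences were used here.

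Members were all Firmicutes_D entries with a count. They and the lists were chosen with earlier results of these data known. Shares of all reads were compared by two-sided permutation tests of group means, with 100000 resamples, and exactly within a batch, and adjusted by Benjamini-Hochberg over all entries of a rank with a mean share of at least 0.01%. The pooled tests permuted mice across both batches, so that the spread they measure includes the difference between batches. Permutation within batch, which keeps the batch difference out of that spread, was an alternative. Under it neither the pooled Bacilli share nor the share of all reads of any Bacilli order passed. The effect of batch, and its interaction with treatment, was tested by permuting batch within treatment. Counts were tested in edgeR 4.0.16 (R 4.3.3) by quasi-likelihood, with batch in the model, filterByExpr and TMM scaling. Detection was tested by Fisher's exact test. Calls are at a 5% false discovery rate. DESeq2 1.42.0, limma 3.58.1, other scalings, centred log ratios, single batches and each mouse left out were alternatives. Fits within E53B, shares within families and the share without Turicibacter were added after the data were seen. Every order and family with a count was named, every genus found in at least 5 mice with values, the other genera with summed reads, and the only or main species of a named genus. The steps were tested on simulated data. Python 3.11.15 ran scipy 1.17.1, pandas 2.3.3, numpy 2.4.6 and matplotlib 3.10.9. Samples were separate mice by their labels. The p-values measure the spread between these mice.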

Additional observations from a re-analysis of the deposited data

Results flagged for a closer look

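In each group 1 mouse, from batch E56A, stood far from the others in its Bacilli share. Control replicate 1 had 1.60%, against 0.204% ± 0.134 (SD) in the other 9 control mice, and FO replicate 2 had 1.59%, against 0.345% ± 0.171 (SD) in the other 9 FO mice. The same mice stood apart in Haloplasmatales_A, at 1.38% against 0.0997% ± 0.120 in the other controls and 1.38% against 0.144% ± 0.129 in the other FO mice. FO replicate 7 had a Lactobacillales share of 0.484%, against 0.0892% ± 0.0638 in the other FO mice, and all of it was Lactobacillus (0.484% against 0.0682% ± 0.0550). In all, 16 groups of values were checked for such a mouse by its gap to the next value over the range. Of these 6 had one, and several of the 6 hold the same reads. The 0.8 expected by chance assumes normally distributed values at a single level. Shares here were skewed and each group pooled 2 batches of unlike level, so that 0.8 cannot serve as a measure of chance. The FO effect on the share of Erysipelotrichales among Bacilli reads was 21.8 percentage points higher in E56A than in E53B (permutation of batch within treatment, adjusted p = 0.0355). That order was abundant enough for testing only through the E53B controls. What underlies these values was not tested.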

How the results depend on the processing

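Bacilli counts were low, from 25 to 807 reads per mouse, and several results depended on the scale. The pooled difference of the Bacilli share turned to -0.70 as a log2 centred log ratio and to -1.69 percentage points against the reads outside Bacteroidota, and was 0.224 and past the threshold in E53B alone. In E53B it was 0.0866 and lost as a centred log ratio, and 0.192 and lost outside Bacteroidota. The number of Bacilli orders past the threshold, 0 in the pooled test, was 3 in E53B alone, 1 as a centred log ratio and 1 outside Bacteroidota. In E53B it fell from 3 to 1 and 0 on these scales. The counts of 3 and 1 include Erysipelotrichales, which was tested only through the E53B controls. The pooled order differences changed sign for Lactobacillales (-0.0064 in E56A alone, -0.63 as a centred log ratio, -0.209 outside Bacteroidota), for Haloplasmatales_A (-1.23 outside Bacteroidota) and for RF39 (-0.24 and -0.135, and -0.0066 in E53B outside Bacteroidota). As a share of Bacilli reads, the sign in E56A alone was the opposite of the pooled one for Lactobacillales (-1.16), Erysipelotrichales (1.75), Haloplasmatales_A (-0.68) and RF39 (0.28), and medians turned Haloplasmatales_A to -0.70 and RF39 to 0.48. The edgeR count of Bacilli genera, 0 pooled, was 1 in E53B alone and 1 with no filter on low counts, and so was that of species. In E53B it was 1, and 2 on total counts, with DESeq2 and with limma on centred log ratios. With no filter on low counts it was again 1, but this was Dubosiella and not Lactobacillus (adjusted p = 0.0546). Dubosiella had reads only in the E53B controls, so that its call gives no independent support to a difference. Turicibacter turned to -0.30 in E56A alone and to -0.34 with no batch term, Lactobacillus to -0.94 in E56A alone, and UBA6985 to 0.57 on total counts and, in E53B, to 0.84 on total counts and 0.34 with limma. With total counts 14 families passed in place of 1, and in E53B 30 genera in place of 12, 25 of them higher and 5 lower. The cause of these changes was not tested. Leaving out each mouse in turn gave 0.00119 to 0.265 for the Bacilli share, 0.159 to 0.268 in E53B, 0 to 1 pooled orders, 1 to 3 orders and 0 to 1 genera in E53B, and 0 to 1 orders in the interaction as a share of Bacilli reads. With a mouse left out, signs also changed for RF39 (-1.72 to 2.29) and Lactobacillales (-3.86 to 6.43) as shares of Bacilli reads, for Haloplasmatales_A (-0.0841 to 0.168), for UBA6985 (-0.42 to 0.0689, and -0.73 to 0.68 in E53B), for Lactobacillus between batches (-1.01 to 0.14) and for the interactions of Lactobacillales (-10.8 to 1.74) and RF39 (-4.94 to 4.52). Single values and counts of calls under all alternatives were labelled together. Of these 669 were kept, 60 changed sign, 63 were lost or fewer and 32 were gained or more. For a value, kept means the same direction and side of the threshold. For a count of calls it means an equal or similar number. No paired analysis was possible because the replicate numbers were given in the order of the samples and pair no mice.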

Other observations

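The Bacilli share without the reads of Turicibacter was 0.115% ± 0.0582 (SD, n = 10) in control and 0.201% ± 0.143 (SD, n = 10) in FO (permutation test, adjusted p = 0.0925). With no filter on low counts, Dubosiella passed in edgeR over both batches (adjusted p = 0.0103) and in E53B (adjusted p = 0.0043), where its fitted change against mice without reads is no bound on the fold. No E56A mouse had Dubosiella reads, so that both fits rest on the same E53B mice. Dubosiella was tested only through the E53B controls, where it was high, so that these calls give no independent support to a difference. Detection of Dubosiella passed in neither comparison (Fisher's exact test, adjusted p = 0.780 and 0.706). In E53B it could have passed only if many genera had reached the smallest p together, so that this result does not speak against the edgeR values. Ligilactobacillus, which the filter had left out, gave -1.60 on the log2 scale over both batches (edgeR, adjusted p = 0.296) and -2.67 in E53B (edgeR, adjusted p = 0.144).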
